A study of Arabidopsis thaliana with 12 samples.

Results

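The class III homeodomain leucine zipper (HD-ZIP III) transcription factors and the LITTLE ZIPPER (ZPR) peptides of Arabidopsis thaliana were followed through the first cell lineages of the embryo. The set was defined by gene identity and not by a cutoff in level. It was chosen with earlier results of these data known, as were the lists of related genes counted below. It holds 9 of the 32399 genes in the files, of which 5 encode HD-ZIP III factors (PHB, PHV, REV, CNA and ATHB8) and 4 encode ZPR peptides (ZPR1 to ZPR4). RNA-seq was performed on the apical cell (AC) and the basal cell (BC), separated from 2-cell proembryos. It was also performed on the embryo proper (32E) and, apart from it, the suspensor (32S) at the 32-cell stage. AC is the progenitor of 32E, and BC that of 32S. All plants were of the Col ecotype (Columbia-0 in the study's methods), grown in a greenhouse under long days. No group had a mutation, transgene or experimental treatment. Seeds were first kept in a solution of cellulase and macerozyme. Embryos were then isolated by hand and the lineages separated with a laser microdissection system. The cells of several embryos were pooled for a library, and the RNA was amplified before sequencing. Each of the 4 groups has 3 libraries.

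HD-ZIP III proteins bind DNA as dimers formed through their leucine zipper. They promote shoot meristem formation, the upper (adaxial) side of lateral organs and the differentiation of vascular tissue, and in the embryo they mark the shoot pole. Their mRNAs are cut by the microRNAs miR165 and miR166. ZPR peptides carry a leucine zipper but no homeodomain, and pair with HD-ZIP III proteins into dimers that do not bind DNA. ZPR genes are themselves activated by HD-ZIP III factors, which makes the pair a feedback loop.

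The microRNAs and their sites are shown first, because all 5 HD-ZIP III genes carry such a site. RefSeq (TAIR10.1) annotates 9 precursor genes with only 2 mature sequences, of 21 bases each. miR165 comes from 2 loci and miR166 from 7. Both are written 5′ to 3′ with the seed, bases 2 to 8, in capitals, and the seed is the same in both.
miR165: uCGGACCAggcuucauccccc
miR166: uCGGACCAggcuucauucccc

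In the annotated transcripts, each HD-ZIP III mRNA holds a site of 21 bases with 3 mismatches to the exact complement of the better matching microRNA. Capitals below mark the bases that differ from that complement, for miR165 in the first 4 genes and for miR166 in CNA.
PHB: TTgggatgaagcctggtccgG
PHV: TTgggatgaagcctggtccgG
REV: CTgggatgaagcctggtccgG
ATHB8: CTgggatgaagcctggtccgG
CNA: CTggaatgaagcctggtccgG
PHB and PHV thus share their site, as do REV and ATHB8, and CNA has its own. To the other microRNA of the pair each site has 4 mismatches. The site is in the coding part of all 5 mRNAs and spans an exon junction, with 11 bases in the first of the joined exons. These are exons 4 and 5 in PHB, PHV, REV and CNA, and exons 5 and 6 in ATHB8. In PHB the pieces lie at chr2:14642656-14642666 and chr2:14642530-14642539, on the minus strand. Over the transcripts of 31464 genes, up to 3 mismatches to miR165 were found in PHB, PHV, REV and ATHB8 and in no other gene, and up to 3 to miR166 in CNA alone. With up to 4 mismatches, miR165 matched 7 genes and miR166 matched 11, in both cases including the 5 HD-ZIP III genes and no ZPR gene. ZPR4, annotated as non-coding, was not searched. A match of letters is a description and does not show that a site is used.

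The genes differ in size between the families. PHB (AT2G34710, chr2:14639323-14644355, minus strand) has 17 exons and 852 codons. PHV (AT1G30490, chr1:10796124-10801093, minus strand) has 841 codons, REV (AT5G60690, chr5:24396981-24402195, plus strand) 842, CNA (AT1G52150, chr1:19409688-19414764, minus strand) 837 and ATHB8 (AT4G32880, chr4:15863339-15868650, minus strand) 833. The ZPR coding parts are far shorter, with 136 codons in ZPR1 (AT2G45450, chr2:18733275-18734341), 106 in ZPR2 (AT3G60890, chr3:22496875-22498099) and 67 in ZPR3 (AT3G52770, chr3:19557516-19559323), all on the minus strand. ZPR4 (AT2G36307, chr2:15218040-15219415, minus strand) is annotated by RefSeq as a non-coding transcript of 706 bases, so no coding part is given here.

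The deposited values are FPKM, fragment numbers divided by transcript length and by the size of the library, which allow levels to be compared between genes of different length. Library totals of FPKM ranged from 833418 to 955228, and 13034 to 15322 genes were above 1. Pearson's r of log2(FPKM + 1) between replicates was 0.968 to 0.996 over 12 pairs, across genes, which are not independent. The files hold no read counts, so a value of 0 is given as listed at 0, and no detection limit was set. The limma model held all 12 libraries, with values as log2(FPKM + 1). A gene was called at a Benjamini-Hochberg adjusted p under 0.01, over all genes tested, and a difference of at least 1 on this scale, in which a difference understates the change of low genes. The study describes the repeats as independent, and the p-values measure the spread between these libraries.

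The labelled cell types were checked against markers. WOX8, which encodes a homeobox factor of basal fate, had an FPKM of 325 to 366 in BC and 388 to 452 in 32S, at 7.02 to 9.35 in AC, and listed at 0 in all 32E libraries. WOX9, its relative, was at 608 to 658 in BC and 244 to 361 in 32S, but also at 75.9 to 105 in 32E, against 0.04 to 1.43 in AC. PIN7, an auxin efflux carrier gene of the suspensor, was listed at 0 in all AC libraries and reached 85.5 to 138 in 32S. The sum of these 3 markers was 986 to 1007 in BC, 775 to 887 in 32S, 80.6 to 107 in 32E and, in AC, 7.06 to 10.4. The summed FPKM of the apical markers WOX2, DRN and ATML1 was 14.8 to 35.4 in 32S and 272 to 323 in 32E. It was 225 to 254 in BC against 197 to 224 in AC, so this sum was not higher in AC than in BC. DRN was called higher in AC than in BC by 1.86 (limma adjusted p = 0.000286), while WOX2 and ATML1 were not called between them. Of the endosperm markers, none of 7 had a library above 3.47. FWA was at 1.18 to 3.09 in AC, at 0.14 or less in 32E and listed at 0 in BC and 32S. IKU2 reached 3.47 in AC replicate 2, and AGL62 reached 1.55 in 32S replicate 1. Of the 6 seed coat markers, TT2 and TT10 were listed at 0 throughout and TT12 and BAN reached at most 0.71, while MUM4 and STK had values above 1 in several groups.

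Every HD-ZIP III gene and both abundant ZPR genes reached their highest level in the embryo proper. For PHB, PHV, REV, CNA, ATHB8, ZPR3 and ZPR4 the 3 libraries of 32E lay above the 9 others. ZPR3 and ZPR4 were listed at 0 or at 0.1 or less outside 32E, and ZPR1 and ZPR2 never exceeded 0.31. Of the 9 genes, 7 passed the filter for the test, an FPKM above 1 in at least 3 libraries. ATHB8, ZPR3 and ZPR4 passed it on their 32E values alone, so a difference between 32E and the rest was built into their passing. These are bulk samples, in which fewer cells expressing a gene and less RNA per cell cannot be told apart.

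**Figure D1:**
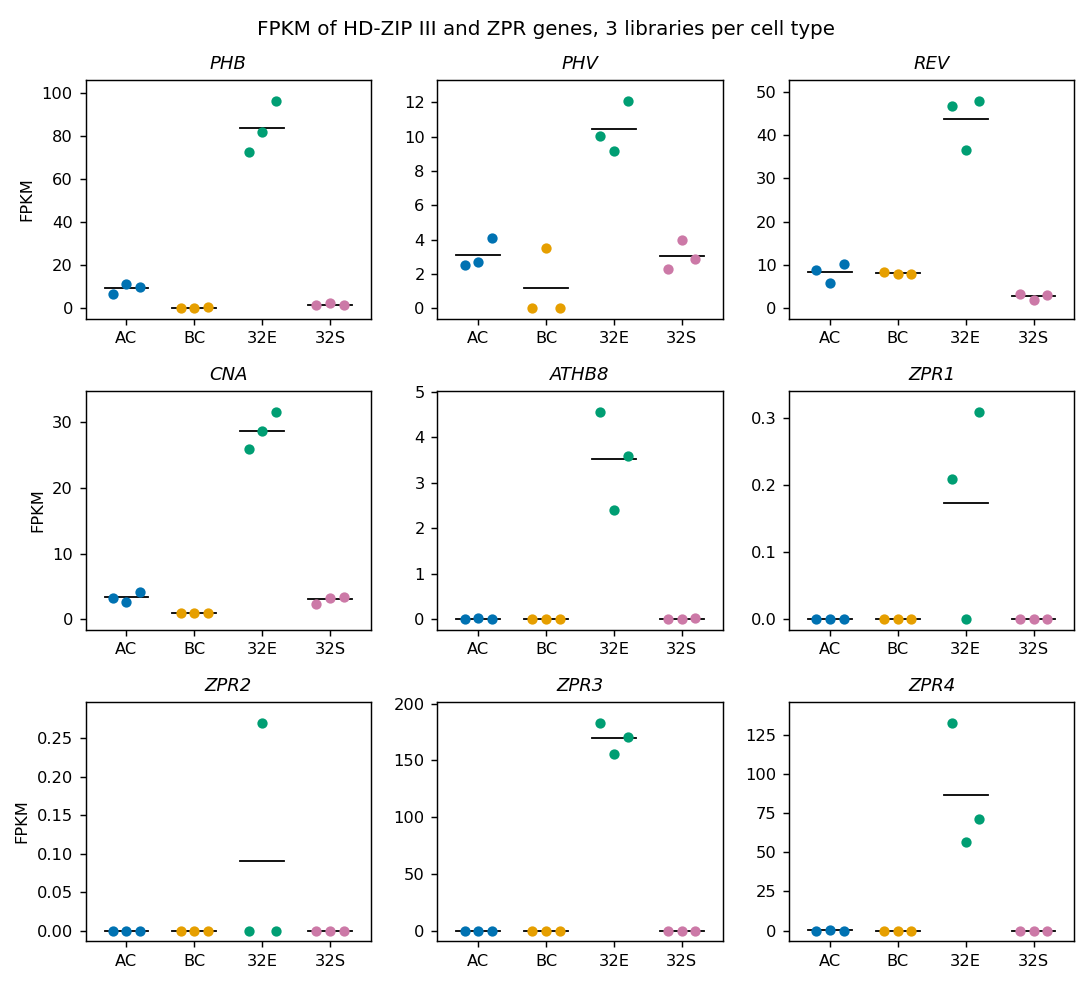
FPKM (vertical axis, linear, a scale of its own in each panel) of the 9 genes in AC, BC, 32E and 32S; each point is a library (replicates 1 to 3 from left to right) and the black line is the mean of 3. The 32E points are the highest in 7 panels, PHV has a lone BC library at 3.54, and ZPR1 and ZPR2 stay at or below 0.31.

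PHB (PHABULOSA) was the most abundant HD-ZIP III transcript of the embryo proper, and its levels separated all cell types. In 32E its FPKM was 72.6, 81.98 and 96.45 in replicates 1 to 3. In AC it was 6.58, 11.45 and 9.66. BC held almost none, at 0.07, 0.01 and 0.53. In 32S it was 1.36, 2.4 and 1.44. The 4 groups did not overlap, and their order was 32E, AC, 32S and BC. On the log2(FPKM + 1) scale PHB was higher in AC than in BC by 3.08 (SE 0.27, limma adjusted p = 1.86e-06), higher in 32E than in 32S by 4.96 (SE 0.27, adjusted p = 1.22e-08) and higher in 32E than in AC by 3.07 (SE 0.27, adjusted p = 2.78e-06). As a ratio of mean FPKM, 32E was 9.07 times AC and 48.3 times 32S. From BC to 32S PHB rose by 1.19 (SE 0.27, adjusted p = 0.00168), to a level that was still below that of AC in every library. This last call ended with a pseudocount of 5 (0.37, adjusted p = 0.0525).

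PHV (PHAVOLUTA), the closest relative of PHB in sequence, stayed at a much lower level. Its FPKM was 10.02, 9.17 and 12.11 in 32E, against 2.55, 2.68 and 4.07 in AC and 2.29, 4 and 2.86 in 32S. In BC it was listed at 0 in replicate 1, at 3.54 in replicate 2 and at 0.04 in replicate 3. AC, 32S and BC overlapped, and only 32E stood clear. No difference of PHV was called. It was higher in 32E than in 32S by 1.51 (SE 0.49, adjusted p = 0.0162) and higher in 32E than in AC by 1.49 (SE 0.49, adjusted p = 0.023). Without BC replicate 2, PHV was called in all 4 comparisons, with differences of 1.51 for 32E over 32S (adjusted p = 0.00021), 1.49 for 32E over AC (adjusted p = 0.000463), 1.99 for AC over BC (adjusted p = 0.00011) and 1.97 for 32S over BC (adjusted p = 6.91e-05). In models of only the groups compared, PHV was called for 32E over 32S (adjusted p = 0.0015) and for 32E over AC (adjusted p = 0.0039).
PHB and PHV share exact runs of up to 64 bases, and fragments from such stretches may be assigned by estimate. PHV also has stretches of up to 98.1% identity with AT5G32670, which has no value in the files. Whether fragments of AT5G32670 were counted for PHV was not tested.

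REV (REVOLUTA), which acts in shoot meristems, leaf polarity and vascular patterning, was the most abundant HD-ZIP III transcript in every BC library. Its FPKM was 8.47, 7.88 and 7.94 in BC and 8.81, 5.89 and 10.32 in AC. These groups overlapped, and the difference of 0.01 (SE 0.24, adjusted p = 1.0) had no call. In 32E it was 46.77, 36.5 and 47.96, and in 32S it was 3.33, 1.84 and 3.13. REV thus rose from AC to 32E by 2.28 (SE 0.24, adjusted p = 1.23e-05) and fell by 1.30 from BC to 32S (SE 0.24, adjusted p = 0.00041), with every 32S library below every BC library. It was the only HD-ZIP III gene with a lower level in the suspensor than in the basal cell. With a pseudocount of 5 the fall was 0.76 (adjusted p = 0.000949), under the required size. Mean FPKM in 32E was 15.8 times that in 32S. REV overlaps AT5G60700 on the opposite strand over 67 bases, and the protocol does not mark strand. That gene was at 3.95 to 15.1, was highest in BC and lowest in 32S.

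CNA (CORONA), which restrains shoot meristem size together with other members, was at 25.95, 28.64 and 31.6 in 32E. Its FPKM was 3.25, 2.67 and 4.14 in AC, and 1.04, 0.91 and 1.01 in BC. The 32S libraries were at 2.41, 3.2 and 3.47, within the range of AC or just below it. CNA was higher in AC than in BC by 1.12 (SE 0.21, adjusted p = 0.000634), and in 32E than in 32S by 2.89 (SE 0.21, adjusted p = 1.59e-07). From AC to 32E it rose by 2.78 (SE 0.21, adjusted p = 8.5e-07), a ratio of mean FPKM of 8.57. The difference between 32S and BC, 1.01 (SE 0.21, adjusted p = 0.000935), was at the edge of the required size. It fell under that size without BC replicate 2 (0.98), without 32S replicate 2 (0.97), without 32S replicate 3 (0.93) and after scaling to TPM (0.96). The call between AC and BC ended without AC replicate 3 (0.99) and with a pseudocount of 5 (0.48).

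ATHB8, a gene of the procambium, the tissue from which vascular strands form, was the least abundant of the family. In 32E it was at 4.56, 2.4 and 3.59. It was listed at 0 in every BC library, at 0.04 in AC replicate 2 and 0.03 in 32S replicate 3, and at 0 in the other AC and 32S libraries. 32E was higher than 32S by 2.13 (SE 0.17, adjusted p = 3.52e-07) and higher than AC by 2.13 (SE 0.17, adjusted p = 1.28e-06). With a pseudocount of 5 these differences were 0.76, and both were under the required size.

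ZPR3 was the most abundant of the 9 transcripts. It was at 183.04, 155.38 and 170.59 in 32E and listed at 0 in all 9 other libraries. ZPR4 was at 132.76, 56.31 and 71.38 in 32E, at 0.1 in AC replicate 2, and listed at 0 in the other 8 libraries. The spread of ZPR4 in 32E was thus the wider, with replicate 1 above the others, and replicate 2 was the lowest of the 3 for both genes and for ATHB8. On the log2(FPKM + 1) scale ZPR3 was higher in 32E than in 32S by 7.41 (SE 0.17, adjusted p = 2.31e-11), and ZPR4 by 6.36 (SE 0.27, adjusted p = 1.69e-09). Against AC the differences were 7.41 (adjusted p = 7.56e-11) and 6.31 (adjusted p = 1.04e-08). With a group at 0 the size depends on the pseudocount, and no fold is given.
ZPR1 was at 0.21 and 0.31 in 32E replicates 1 and 3, and ZPR2 at 0.27 in 32E replicate 2. Both were listed at 0 in the other libraries, and neither was tested. Within the peptide family, the transcripts of the embryo proper were therefore almost wholly ZPR3 and ZPR4.

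ZPR3 and ZPR4 share 25 bases exactly, the longest run between them. It is shown because it lies in the coding part of ZPR3, at chr3:19558070-19558094 on the minus strand, and recurs in ZPR4 at chr2:15218613-15218637.
Shared run of ZPR3 and ZPR4: atggagaggctaaactcgaagctgt

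**Figure D2:**
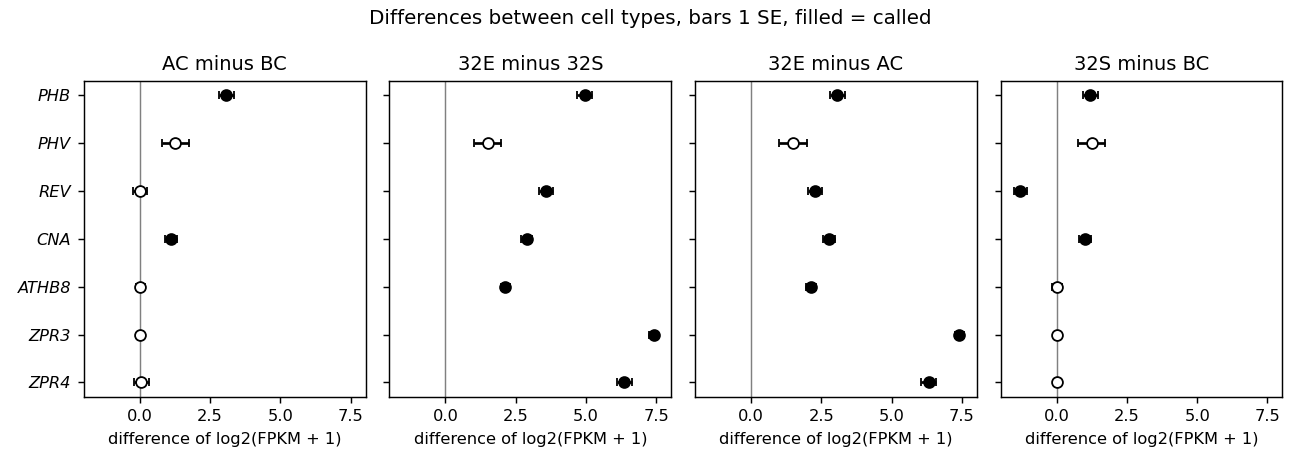
Differences of log2(FPKM + 1) (horizontal axis) for the 7 tested genes in 4 comparisons, first group minus second; bars are 1 standard error from limma, filled points were called. From AC to 32E the filled points lie at 2.13 to 7.41, while from BC to 32S they lie at 1.19 (PHB), 1.01 (CNA) and -1.30 (REV).

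Between the apical and basal cell, PHB and CNA were called higher in AC, and REV, PHV, ATHB8, ZPR3 and ZPR4 were not called. No gene of the set was higher in BC. Over all 17060 genes tested, 19.0% were called higher in AC and 18.4% lower. PHB, REV and CNA, which pass the filter also without the 32E libraries, were called higher in 32E than in 32S, where 23.8% of tested genes were called higher and 22.6% lower. They were also called higher in 32E than in AC, where 13.1% of tested genes were called higher and 14.3% lower. These comparisons share the 32E libraries. ATHB8, ZPR3 and ZPR4 were called in both, but nothing is read from their number, since they passed the filter on 32E values alone. PHV was not called, and ZPR1 and ZPR2 were not tested.
Between 32S and BC, PHB and CNA were called higher and REV lower, against 25.3% of all genes higher and 26.7% lower. With a pseudocount of 5 none of the 3 was called.

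The change over time was then compared between the lineages. The rise from AC to 32E exceeded the change from BC to 32S by 3.58 for REV (SE 0.34, limma adjusted p = 2.65e-06), which rose in the apical lineage and fell in the basal lineage. For PHB the excess was 1.88 (SE 0.38, adjusted p = 0.000899), but with a pseudocount of 0.1 it was 0.23 (adjusted p = 0.817), since the BC values are close to 0. For CNA it was 1.77 (SE 0.29, adjusted p = 0.00023) and for ATHB8 2.11 (SE 0.24, adjusted p = 1.07e-05), which with a pseudocount of 5 was 0.75 and under the required size. ZPR3 and ZPR4 gave 7.41 and 6.31. For PHV it was 0.24 (SE 0.69, adjusted p = 0.771), not called and of either sign under the alternatives (-1.31 to 0.61). Over all tested genes, 27.0% were called in the direction of the apical lineage and 25.8% in the other, and for ATHB8, ZPR3 and ZPR4 the direction followed from how they passed the filter.

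The family as a whole can be given as a sum of FPKM, as a description. HD-ZIP III transcripts summed to 21.2 to 28.2 in AC, 9.52 to 12.3 in BC, 159 to 192 in 32E and, in 32S, 9.39 to 11.4. BC and 32S overlapped in this sum but not in its make-up. REV held 63.9% to 88.4% of the sum in BC. In 32S it held 16.1% to 35.5%, beside PHV at 24.4% to 35.0%, CNA at 25.7% to 31.7% and PHB at 13.2% to 21.0%. In 32E the shares were close between libraries, with PHB at 45.4% to 51.7%, REV at 23.0% to 29.2%, CNA at 16.2% to 18.0%, PHV at 5.78% to 6.32% and ATHB8 at 1.51% to 2.85%. AC was led by PHB, at 31.1% to 50.4%, or by REV, at 25.9% to 41.6%, depending on the library. The ZPR sum in 32E was 212 to 316, which is 1.26 to 1.98 times the HD-ZIP III sum of the same library. This is a ratio of transcripts per length and says nothing of proteins.

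**Figure D3:**
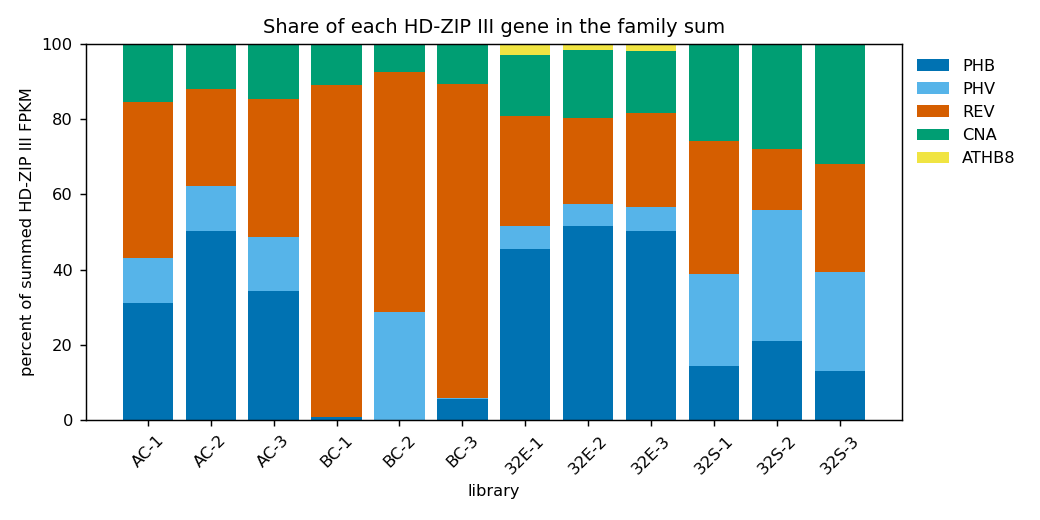
Share of each HD-ZIP III gene in the summed HD-ZIP III FPKM (percent, vertical axis) in each of the 12 libraries. REV fills 63.9% to 88.4% in BC, PHB takes 45.4% to 51.7% in 32E, and in 32S no gene exceeds 35.5%.

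In 32S, replicate 2 had the highest PHB (2.4) and PHV (4) and the lowest REV (1.84). The same library was also the highest of the 3 for the apical markers WOX2 (1.98, against 0 and 0.42) and ATML1 (32.47, against 13.98 and 19.19). It was not the highest for DRN, also on that list (0.92, against 0.86 and 0.98). The suspensor markers PIN7 (138, against 85.5 and 103) and WOX9 (361, against 244 and 271) were highest in it too. WOX8, also of the suspensor list, was lowest in it (388, against 446 and 452). ZPR3 and ZPR4, the most abundant members in 32E, were listed at 0 in this library. Without this library PHB was still called between 32E and 32S, as were REV, CNA, ATHB8, ZPR3 and ZPR4. The summed FPKM of the seed coat markers, almost all from MUM4 and STK, was 34.5 to 46.1 in 32E, 23.8 to 28.4 in BC, 8.84 to 13.4 in AC and, in 32S, 3.86 to 11.7. MUM4 was at 23.5 to 28.4 in BC and 17.4 to 28.3 in 32E, while STK was at 17.1 to 19 in 32E and at most 0.26 in BC. The part of these markers in the results was not tested.

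The microRNA side of the pathway came next. All 9 MIR165 and MIR166 genes were listed at 0 in all 12 libraries. The libraries were made from polyadenylated RNA, and mature microRNAs were not measured. Whether transcripts of the precursor genes can be measured in such libraries was not tested, so the zeros do not show that these genes are silent. Proteins that make or use microRNAs were measured as transcripts. AGO10 (ARGONAUTE10), which binds miR165 and miR166 and keeps them from AGO1, was also highest in the embryo proper. It was at 75.76, 78.19 and 77.64 in 32E, 30.57, 31.37 and 37.95 in AC, 13.92, 15.37 and 14.6 in BC, and 3.77, 3.02 and 2.89 in 32S. No groups overlapped. AGO10 was higher in AC than in BC by 1.13 (SE 0.14, adjusted p = 2.69e-05) and in 32E than in 32S by 4.22 (SE 0.14, adjusted p = 2.71e-10), rose from AC to 32E by 1.20 (SE 0.14, adjusted p = 2.6e-05) and fell by 1.89 from BC to 32S (SE 0.14, adjusted p = 1.9e-07).
AGO1, the main effector of microRNA cleavage, had another order. It was at 273 to 332 in AC, 203 to 223 in BC, 143 to 160 in 32E and, in 32S, 58.8 to 98.7. Its fall of 1.36 from BC to 32S was called (adjusted p = 1.29e-05), while the difference of -0.97 from AC to 32E was under the required size (adjusted p = 0.000446). Mean AGO1 was thus above mean AGO10 in all groups, by the least in 32E, where the means were 151 and 77.2.

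Of the 8 genes of the machinery, all tested, 3 were called higher in 32E than in 32S and none lower, with a median difference of 0.86 beside 0.05 over all genes, of which 23.8% were called higher. They were AGO10, HYL1, which encodes a partner of the Dicer enzyme, and SQN, a cyclophilin gene that promotes AGO1 activity. Between AC and BC, AGO10 was called higher and DCL1 and SQN lower, beside 19.0% and 18.4% of all genes. DCL1, the Dicer that cuts microRNA precursors, was at 0.36 to 1.14 in AC and 3.88 to 5.07 in BC, a difference of -1.65 (SE 0.22, adjusted p = 6.02e-05). From AC to 32E, AGO10 and SQN were called higher and none lower, beside 13.1% and 14.3% of all genes. From BC to 32S, where 25.3% of all genes were called higher and 26.7% lower, AGO1, AGO10, SE and SQN were called lower and HST, the exportin homologue, higher, with a median of -0.97 beside 0.0 over all genes. HEN1, which methylates microRNAs, had no call in these comparisons.

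**Figure D4:**
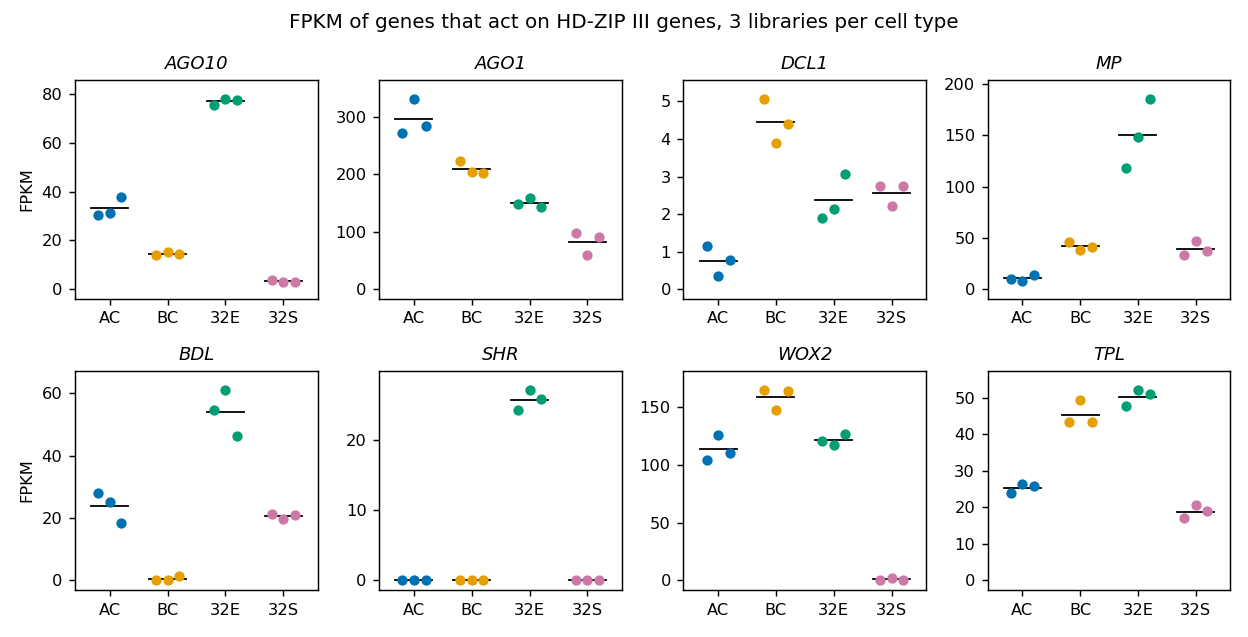
FPKM (vertical axis, linear, a scale of its own in each panel) of 8 genes that act on HD-ZIP III genes or their microRNAs, by cell type; points are libraries and lines the mean of 3. AGO10 is lowest in 32S (2.89 to 3.77) and highest in 32E (75.8 to 78.2), and SHR is listed at 0 outside 32E.

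Of 6 other regulators of HD-ZIP III genes, 5 were called higher in 32E than in 32S and none lower, with a median difference of 1.64. Over all genes 23.8% were called higher and 22.6% lower, with a median of 0.05, and SHR passed the filter on 32E values alone. MP (MONOPTEROS), the auxin response factor that activates ATHB8, was at 118 to 186 in 32E, 7.66 to 13.5 in AC, 38.4 to 45.6 in BC, and 33.1 to 47.3 in 32S. In AC it was lower than in BC by 1.93 on the log2 scale (difference -1.93, SE 0.21, adjusted p = 1.21e-05), so that its order at the early stage was opposite to that of PHB. From AC to 32E it rose by 3.73 (SE 0.21, adjusted p = 1.07e-07). BDL, the Aux/IAA repressor of MP, was at 18.4 to 28.1 in AC, 46.3 to 61 in 32E and 19.8 to 21.2 in 32S. In BC it was listed at 0 in 2 libraries and at 1.4 in the other.
SHR, a GRAS factor that in the root activates miR165 and miR166 genes together with SCR, was listed at 0 in all but the 32E libraries, which were at 24.2 to 27. SCR had no call in any of the 4 comparisons. WOX2, a homeobox factor that promotes HD-ZIP III expression in the shoot domain of the embryo, was at 104 to 126 in AC, 147 to 165 in BC and 117 to 126 in 32E, with 0 to 1.98 in 32S. WOX2 was thus high in BC, where PHB was nearly absent, and whether the levels of these genes are linked was not tested. TPL (TOPLESS), a corepressor whose loss lets root factors into the shoot domain, fell by 1.22 from BC to 32S (adjusted p = 1.25e-06) and was higher in 32E than in 32S by 1.37 (adjusted p = 4.55e-07).

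KANADI factors oppose HD-ZIP III factors in lateral organs. Of the 4 genes, KAN3 reached only 0.18 and was not tested, and the other 3 were called higher in 32E than in AC, beside 13.1% of all genes. KAN1 was at 4.26, 9.5 and 12.06 in 32E, at 8.28 to 10.1 in BC, and listed at 0 in AC and 32S. It was therefore higher in BC than in AC (difference -3.34, SE 0.28, adjusted p = 1.72e-06). KAN2 and ATS were listed at 0.03 or less in AC and BC and appeared in both 32E (5.91 to 9.33 and 3.05 to 11.3) and 32S (7.62 to 10.9 and 10.4 to 11).

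Of 3 genes for proteins that bind HD-ZIP III factors or their partners, all were called higher in 32E than in 32S, as were 23.8% of all genes, and DRNL passed the filter on 32E values alone. DRN, an AP2 factor gene of the shoot apex, was at 55.6 to 100.5 in 32E, 22.9 to 60.3 in AC, 8.61 to 10.3 in BC and 0.86 to 0.98 in 32S, and of these groups 32E and AC overlapped. DRNL, its relative, was at 1.46 to 6.65 in 32E and listed at 0 in the other groups. BIM1, a bHLH factor gene, was highest in AC, at 23.5 to 31.7.

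Among 8 known targets of HD-ZIP III factors, 7 were tested. Of these, 5 were called higher in 32E than in AC and none lower, with a median difference of 1.92 beside -0.01 over all genes, of which 13.1% were called higher and 14.3% lower. TAA1 and HAT2, among these 5, passed the filter only with their 32E values, so for them this direction was built in. The median is the value of HAT2. Between 32E and 32S, 2 were called higher (TAA1 and LEC2) and 2 lower (ATHB4 and YUC5), beside 23.8% and 22.6% of all genes. Of these, TAA1 passed the filter only with its 32E values and YUC5 on 32S values alone, so their directions were built in. The HD-ZIP II genes of the list had different orders. HAT3 was at 64.9 to 73.7 in 32E and 71.2 to 104 in 32S, and lower in AC (6.57 to 8.68) than in BC (52.7 to 55.5). ATHB4 was highest in 32S, at 216 to 331, and lower in 32E than in 32S (difference -1.67, SE 0.19, adjusted p = 1.01e-05). HB2 (ATHB2) was at 27 to 29.5 in 32E and 20.2 to 30.1 in 32S. HAT2 was at 4.9, 2.1 and 2.23 in 32E, at 0, 2.6 and 0.48 in 32S and at 0.05 or less in the earlier cells, with 32E above AC by 1.92 (SE 0.39, adjusted p = 0.00164). HAT1 reached only 0.16.
The auxin synthesis genes of the list went apart. TAA1 was at 38.28, 35.95 and 34.98 in 32E, at 1.66 in AC replicate 2 and listed at 0 elsewhere, whereas YUC5 was at 7.48, 20.28 and 13.71 in 32S and listed at 0 elsewhere. LEC2, a B3 factor gene that PHB and PHV bind, was at 110 to 119 in AC, 197 to 215 in BC, 66.5 to 73.6 in 32E and, in 32S, 0.87 to 1.5.
The root pole factors PLT1 and PLT2, which HD-ZIP III factors oppose, were both lower in AC than in BC, with differences of -3.57 (adjusted p = 1.35e-05) and -2.52 (adjusted p = 4.65e-06). Both rose from AC to 32E. PLT1 was at 1.13, 3.44 and 0 in AC and at 95.1 to 117 in 32E.

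**Figure D5:**
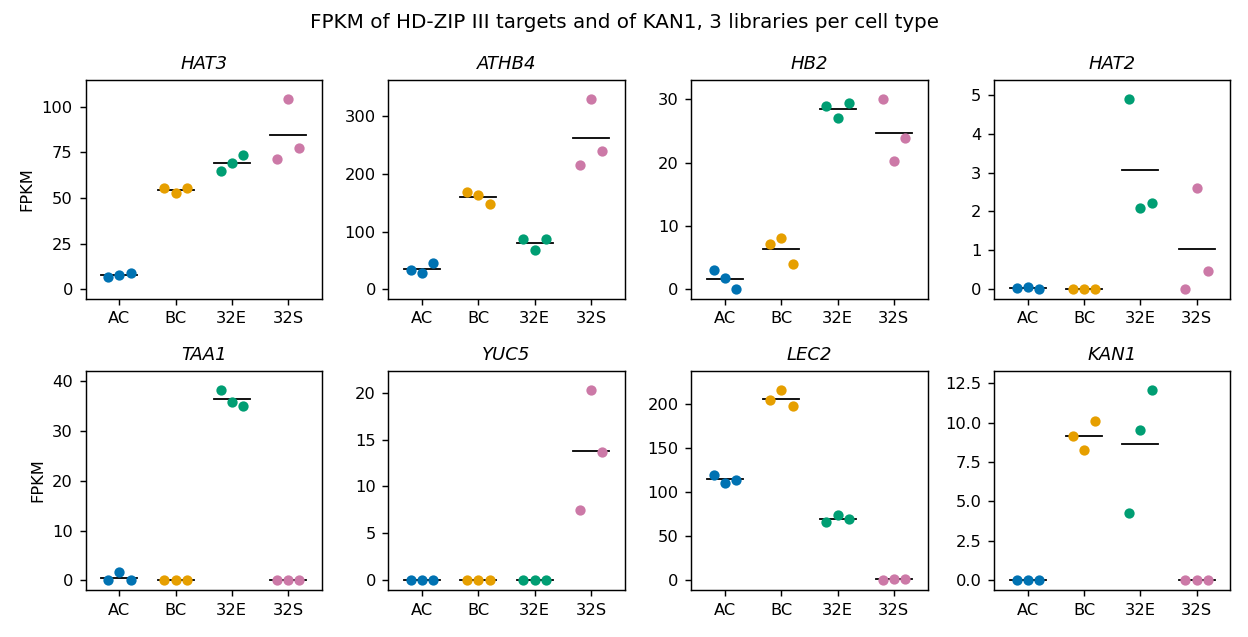
FPKM (vertical axis, linear, a scale of its own in each panel) of 7 targets of HD-ZIP III factors and of KAN1, by cell type; points are libraries and lines the mean of 3. TAA1 stands at 35 to 38.3 in 32E, YUC5 is above 0 in 32S alone (7.48 to 20.3), and HAT3 is high in BC, 32E and 32S.

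The genes closest in profile to each tested member were named by Pearson's r of log2(FPKM + 1) over the 12 libraries, as a description that rests mainly on the 4 group means. PHB was closest to FAS1 (r = 0.99), a subunit of chromatin assembly factor 1, to HTB4 (r = 0.99), a histone H2B gene, and to DRB2 (r = 0.99), a double-stranded RNA-binding protein gene. CNA was closest to GRF3, ETT and SUB (r = 0.99), which encode a growth-regulating factor, an auxin response factor and a receptor kinase. ETT was at a mean of 89.3 in 32E and 2.8 in AC. REV was closest to AT4G31620 (r = 0.98), AT1G55340 and AT2G30620 (both r = 0.97), and PHV to AT4G09040 (r = 0.95), AT3G26750 and AT4G31430 (both r = 0.94).
For ATHB8, ZPR3 and ZPR4 the measure mostly picks genes listed at 0 outside 32E. These were AT3G19070, MEE25 and ROPGEF2 for ATHB8, AT4G22235, BR6OX2 and AT5G02440 for ZPR3, and AT5G57570, WOX11 and MEE25 for ZPR4, all with r of at least 0.998. More than 0.95 in r was reached by 240 genes with ZPR3, 210 with ZPR4, 190 with ATHB8, 65 with PHB, 55 with CNA, 10 with REV and 1 with PHV. Among the members, r was 0.997 between ZPR3 and ZPR4, 0.952 between PHB and CNA, and 0.574 between PHV and REV.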

How the data were processed

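Polyadenylated RNA of 12 libraries in 4 groups of 3 was measured. The authors computed the deposited FPKM values with RSEM against TAIR10, rounded to 2 decimals, with no scaling between libraries named. The paper names Bowtie 2 and the submitters' notes TopHat2 2.1.1, so the aligner is not settled. Read counts behind the values were not recovered, and FPKM divides by effective length, which is less certain for short transcripts such as those of ZPR genes.

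Groups were taken from the titles and tissue labels. The stage label of all 32E and 32S libraries is the 32-cell stage, while their source names give a cell number that goes up by 1 from sample to sample, and the stage label was used. The test was that of limma 3.58.1 (R 4.3.3), run on log2 of FPKM plus a pseudocount of 1 for the 17060 of 32399 genes that exceeded FPKM 1 in 3 or more libraries, with a trended prior and 8 residual degrees of freedom. Calls needed a Benjamini-Hochberg adjusted p under 0.01 over all tested genes and a log2 difference of at least 1. The procedure was tested on simulated data. Alternatives were pseudocounts of 0.1 and 5, no filter, a filter at FPKM 5, median-ratio and TPM scaling, a model of the compared groups only, a replicate block and leaving out each library. Named genes are all members, all listed pathway and marker genes, and the 3 genes closest in profile to each tested member. The members and lists were chosen with earlier results of these data known.

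Positions and sequences came from RefSeq TAIR10.1, whose nuclear chromosomes carry the TAIR10 sequence. Sequence similarity was searched with blastn 2.17.0, and other steps used python 3.11.15, numpy 2.4.6, pandas 2.3.3 and matplotlib 3.10.9. Protein sequences were not used here, and promoter sequences are not reported here.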

Additional observations from a re-analysis of the deposited data

Results flagged for a closer look

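For 6 genes the change from AC to 32E differed from the change from BC to 32S in limma's test of that difference. The difference on the log2(FPKM + 1) scale was 1.88 for PHB, 3.58 for REV, 1.77 for CNA, 2.11 for ATHB8, 7.41 for ZPR3 and 6.31 for ZPR4. REV is the gene whose called changes had opposite directions in the lineages. For ATHB8, ZPR3 and ZPR4 the difference comes from 32E alone, as the other groups were at or near 0, and they passed the filter on 32E values alone. The difference ended under the required size for ATHB8 with a pseudocount of 5 (0.75), and was not called for PHB with a pseudocount of 0.1 (0.23). Over all genes tested, 27.0% were called in this direction and 25.8% in the other. With groups of 3, single libraries were not tested as outliers.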

How the results depend on the processing

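Of 688 values of single genes under the alternatives, 669 kept their call or lack of one, 13 lost their call and 6 gained it. The sign changed in 7 of them, none called in any fit, 5 for REV between AC and BC (lowest adjusted p = 0.674) and 2 for PHV in the difference between the lineage differences (lowest adjusted p = 0.256). The number of members called was 2 between AC and BC, 6 between 32E and 32S, 6 between 32E and AC, 3 between 32S and BC and 6 for the difference between the lineage differences. Each count of 6 includes ATHB8, ZPR3 and ZPR4, which passed the filter on 32E values alone. Over all genes tested, 19.0% were called higher and 18.4% lower between AC and BC, and 23.8% and 22.6% between 32E and 32S. The shares were 13.1% and 14.3% between 32E and AC, 25.3% and 26.7% between 32S and BC, and 27.0% and 25.8% for the difference. A pseudocount of 5 left 1 between AC and BC and 0 between 32S and BC. Over all genes it took the number called between AC and BC from 3237 to 2154 higher and from 3131 to 2341 lower. Between 32S and BC the numbers went from 4313 to 3281 higher and from 4548 to 3663 lower. Leaving out each library in turn gave 1 to 3 between AC and BC, 6 to 7 between 32E and 32S, 6 to 7 between 32E and AC, 2 to 3 between 32S and BC and 6 to 6 for the difference. Median-ratio scaling moved the median of all genes by 0.14 between 32S and BC and by -0.12 in the difference. Same-numbered replicates did not deviate together (r from -0.12 to 0.07), and a fit with the replicate block gave 2, 6, 6, 3 and 6 calls in the order above. The depth behind low values is unknown, so levels near 0 are the least certain.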
